A study of Mus musculus with 11 samples.

Results

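Antigen presentation was followed here through 10 genes of the mouse major histocompatibility complex (MHC) pathways, chosen by their symbols from the 32287 genes of the feature table: the class I genes H2-K1, H2-D1, B2m, Tap1 and Tapbp, and the class II genes H2-Aa, H2-Ab1, H2-Eb1, Cd74 and Ciita. The study sequenced RNA of single cells from brain vessels that had been enriched with antibodies against CD31, an endothelial surface protein. There were 6 CADASIL mice, whose transgene is human NOTCH3 with the R182C allele (labelled Tg350), and 5 control mice, which carry the wild-type human NOTCH3 transgene (labelled Tg100). Among the CADASIL mice 3 were 6 months and 3 were 9 months old, and among the control mice 3 were 6 months and 2 were 9 months old. Both sexes were used, and the labels give 4 batches. Batch 1 held 2 CADASIL and 2 control mice of 9 months, batch 3 held 2 and 2 mice of 6 months, batch 4 held 1 and 1 of 6 months, and batch 2 held 1 CADASIL mouse of 9 months alone. The allele and the transgene line cannot be told apart, and there was no mouse without a transgene.

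Class I molecules, built from a heavy chain such as H2-K or H2-D and the light chain β2-microglobulin, show peptides from inside the cell to CD8 T cells and are made by most nucleated cells. The transporter subunit Tap1 brings peptides into the endoplasmic reticulum, and tapasin (Tapbp) helps to load them. Class II molecules show peptides taken up from outside to CD4 T cells and are made mainly by macrophages, dendritic cells and B cells, where the invariant chain (Cd74) guides them and Ciita switches their genes on; interferons raise both pathways.

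The 11 libraries held 443513007 unique molecules (UMIs) in 66658 barcodes, from 17550806 UMIs in CADASIL 6 months replicate 2 to 64215050 in CADASIL 9 months replicate 1. A barcode was kept if it showed 500 genes or more and no more than 10% of its UMIs were mitochondrial (61625 were), and cells were assigned by counting detected marker genes, none of which is one of the 10 genes. This gave 52409 cells: 36309 endothelial cells (EC), 13023 microglia, 2254 mural cells, 617 B cells and 206 macrophages. Within EC, 6037 were arterial, 9972 capillary, 4871 venous and 1474 fenestrated, the last named by the diaphragm gene Plvap and 4 further markers. Levels are given as CPM, the UMIs of a gene divided by all UMIs of the class in that mouse and scaled in the usual way (counts per 1e6), a measure that holds within a gene across classes and not between genes. Macrophages of CADASIL 6 months replicate 2 (9 cells) and B cells of control 6 months replicate 1 (8 cells) were left out as too few.

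Markers used in no gate checked the names. Slco1a4, a transporter of brain endothelium, stood at 2152 CPM in EC and 10.5 CPM in mural cells, and Lyz2, a lysozyme of myeloid cells, at 4.49 CPM in EC. The immunoglobulin light chain gene Igkc stood at 0.491 CPM in EC. All 55 pairs of libraries shared barcodes, up to 350 in 1 pair (10.2% of the smaller library), and 966 barcodes occurred in 2 or more libraries. Of their 2538 entries 1186 were gated cells. Apart from those by age and within interferon-gated capillary EC, the comparisons by genotype and within mice in edgeR, the shares and the relations were therefore repeated with the shared barcodes left out, an alternative chosen after seeing the data; the steps between classes were not. Ciita by genotype in B cells then differed in direction (0.0037 in place of −0.0145, adjusted p = 1 in edgeR), as did 2 shares when the thinning was drawn anew, given below.

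Class I heavy chain H2-K1 was highest in fenestrated EC, at 1577 ± 406 CPM (SD, n = 11 mice), from 677 through a median of 1719 to 2111. It averaged 1051 ± 232 in venous EC, 931 ± 218 in B cells (n = 10), 907 ± 213 in arterial EC, 807 ± 180 in macrophages (n = 10), 630 ± 182 in capillary EC, 518 ± 90.5 in microglia and 87.5 ± 15.5 in mural cells. Each pair of neighbours in this order was tested across mice by a 2-sided exact permutation test of sign flips on log2(CPM + 1), adjusted over the 7 pairs of a gene by the Benjamini-Hochberg method. Fenestrated EC lay above venous EC in 10 of 11 mice (adjusted p = 0.00684), capillary EC above microglia (adjusted p = 0.0228) and microglia above mural cells in 11 of 11 mice (adjusted p = 0.00684), whereas the steps between venous EC and capillary EC did not pass.

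The other heavy chain, H2-D1, had its highest mean in fenestrated EC (1673 ± 340 CPM) and its lowest in mural cells (116 ± 17.2 CPM, n = 11). Arterial EC came second at 1220 ± 203 CPM, ahead of macrophages at 1107 ± 181, venous EC at 1023 ± 170, B cells at 942 ± 137, capillary EC at 776 ± 167 and microglia at 539 ± 95.4. The light chain gene B2m followed with 1814 ± 476 CPM in fenestrated EC, 1219 ± 204 in macrophages, 1140 ± 240 in arterial EC, 1110 ± 246 in venous EC, 1080 ± 133 in microglia, 892 ± 233 in B cells, 847 ± 234 in capillary EC and 98.7 ± 22.1 in mural cells. Both genes had the same highest and lowest class as H2-K1, and the highest step passed in the exact permutation test for H2-D1 (adjusted p = 0.00228, against arterial EC) and B2m (adjusted p = 0.0137, against macrophages). Microglia lay above B cells in B2m (adjusted p = 0.0182) and below capillary EC in H2-D1 (adjusted p = 0.00228).

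The loading genes showed the same ends. Tap1 averaged 50.6 ± 15.3 CPM in fenestrated EC and 5.71 ± 2.64 in mural cells, with B cells at 44.0 ± 14.4, a step that did not pass (adjusted p = 0.543, exact permutation test). Tap1 counts were low in macrophages, where 4 of 10 mice had no UMI. Tapbp averaged 169 ± 27.0 CPM in fenestrated EC, 117 ± 11.6 in arterial EC, 109 ± 11.8 in venous EC, 91.6 ± 7.72 in microglia, 88.6 ± 8.30 in capillary EC and 35.0 ± 4.65 in mural cells. Tapbp was the class I gene with the smallest distance between mural cells and EC. Its mural level was 31.7% of the EC level of the same mouse (median of 11), against 10.0% for H2-K1, 11.2% for H2-D1, 9.40% for B2m and 15.8% for Tap1. Tapbp overlaps the gene Zbtb22 on the same strand, and the part of this overlap was not tested. The EC markers Slco1a4, Ly6c1 and Ly6a, used in no gate, stood in mural cells at 0.489%, 0.478% and 0.499% of their EC levels and Bsg at 3.47%, although Igfbp7 was higher in mural cells than in EC.

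**Figure D1:**
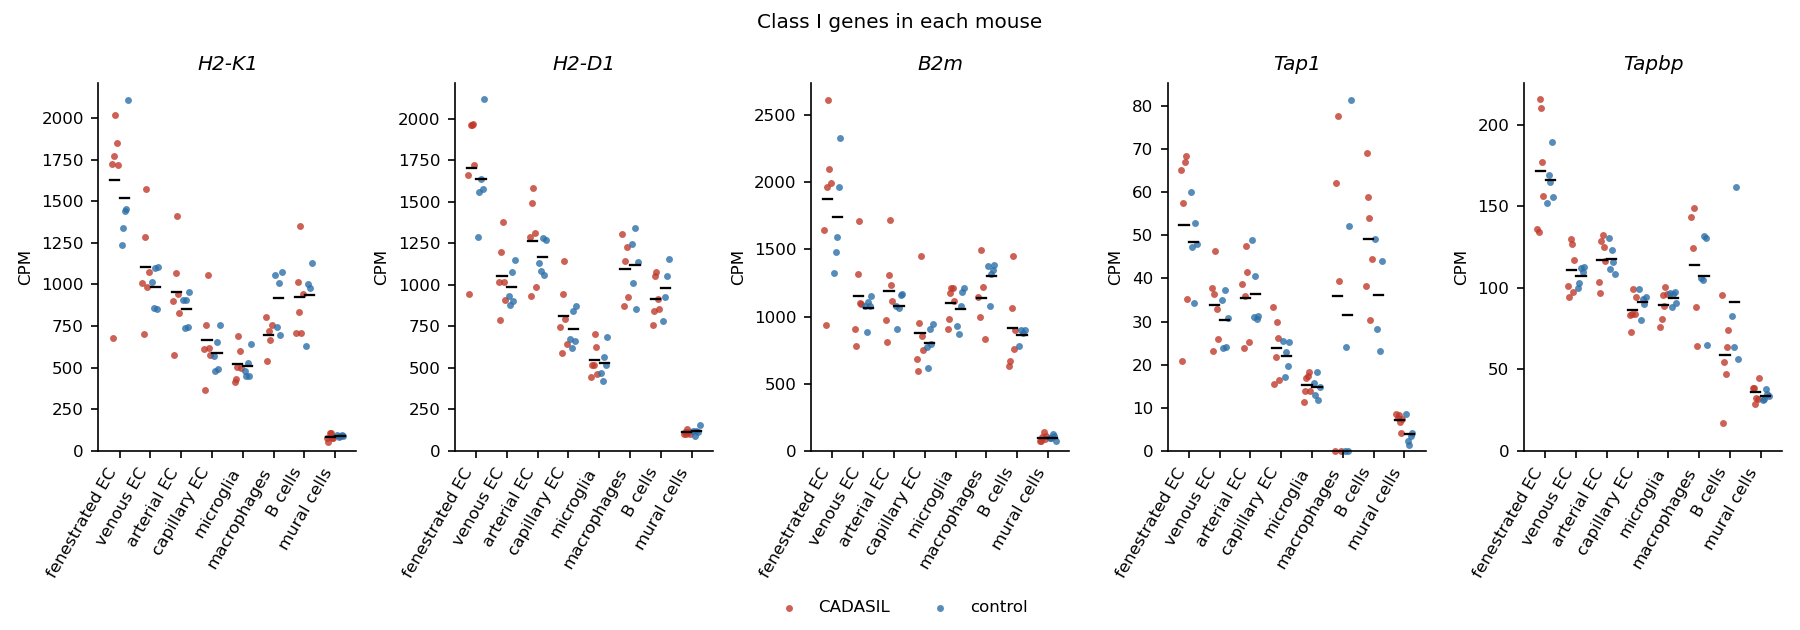
Levels (CPM) of the 5 class I genes in 8 cell classes, 1 point for each CADASIL (red) and control (blue) mouse, with the group mean as a black line and a linear axis in each panel. H2-K1 runs from a mean of 1577 CPM in fenestrated EC to 87.5 CPM in mural cells, and the points of both genotypes overlap in every class shown.

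Within each mouse, EC subtypes were then compared with capillary EC over all genes (edgeR, mouse as a block, adjusted p under 0.05). All 5 class I genes were higher in arterial EC, where 27.3% of 11640 genes were called higher, and in 11 of 11 mice each. H2-D1 led with a log2 fold change of 0.66 and Tapbp came last with 0.41 ± 0.04 (SE). In venous EC, with 27.3% of 11650 genes called higher, the same 5 genes were higher in 11 of 11 mice, by 0.30 ± 0.04 for Tapbp up to 0.74 ± 0.03 for H2-K1. Fenestrated EC, with 26.8% of 10951 genes called higher, showed the largest differences, at 1.30 ± 0.07 for H2-K1, 1.09 ± 0.07 for H2-D1, 1.07 ± 0.07 for B2m, 1.14 ± 0.10 for Tap1 and 0.92 ± 0.07 for Tapbp, again in 11 of 11 mice. Median depth per mouse was 5099 UMIs a cell in fenestrated EC and 3958.5 in capillary EC and was 6532 in arterial and 10248.5 in venous EC (medians of 11 mice), and its part in these differences was not tested.

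Other genes of the class I pathway moved with them. From a list of 37 further antigen presentation genes, 31 were tested in fenestrated against capillary EC, with 21 called higher (26.8% of all genes were) and 5 lower (26.2% of all genes) and a median log2 fold change of 0.51 against −0.03 over all genes. The 6 other class I heavy chains were all higher, led by H2-Q6 (2.39 ± 0.14) and H2-Q7 (2.24 ± 0.14), and so were the 5 immunoproteasome genes, led by Psmb9 (1.09 ± 0.08). Irf1 and Nlrc5, activators of class I genes, were higher by 1.39 ± 0.08 and 0.90 ± 0.11, while Cd40 was lower by −1.29 ± 0.21. In arterial EC 19 of 31 were higher and 7 lower (median 0.27), with 27.3% of all genes higher and 28.1% lower, and in venous EC 13 of 31 were higher and 5 lower (median 0.06), with 27.3% and 27.9%. H2-Q6 was the largest in both, at 1.85 ± 0.09 and 2.21 ± 0.11, and the lysosomal protease gene Ctss, which cuts the invariant chain, was lower in both, at −0.78 ± 0.10 and −1.46 ± 0.09.

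Across the 8 class means, the genes outside the 10 whose levels ran most like H2-K1 were H2-T23 (Pearson r = 0.985), Psmb9 (0.985), Psmb8 (0.978), H2-Q7 (0.976) and Psmb10 (0.960), among 9909 genes with at least 20 CPM in a class. The classes share libraries, so these values describe a likeness only. Among the 10 genes H2-K1 and H2-D1 ran together at r = 0.988 and H2-K1 and B2m at 0.961.

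Class II genes had another order, with macrophages and B cells on top. H2-Aa, the class II α chain, averaged 2851 ± 1150 CPM in macrophages (n = 10; lowest 1247, median 2859, highest 4597) and 2344 ± 346 in B cells (n = 10; lowest 1846, median 2281, highest 2833). Fenestrated EC came next with 26.3 ± 15.9 CPM (n = 11; lowest 6.71, median 24.7, highest 52.8), ahead of microglia at 9.88 ± 9.94, arterial EC at 2.46 ± 5.14, capillary EC at 1.87 ± 3.54 and mural cells at 0.381 ± 0.600. Macrophages and B cells did not differ beyond their spread (adjusted p = 0.633, exact permutation test), B cells lay above fenestrated EC (adjusted p = 0.0137) and fenestrated EC above microglia (adjusted p = 0.0239), and below microglia no step passed. Of the 661 H2-Aa UMIs of microglia, 34 of 13023 cells, those with at least 20 class II UMIs, held 579 (87.6%), and their part in the level and in its step was not tested.

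The β chains H2-Ab1 and H2-Eb1 were ordered alike at the top. H2-Ab1 averaged 3072 ± 1145 CPM in macrophages, 2080 ± 187 in B cells, 37.9 ± 24.6 in fenestrated EC and 16.4 ± 10.7 in microglia, and fenestrated EC again lay above microglia (adjusted p = 0.0342, exact permutation test). H2-Eb1 averaged 3219 ± 1427 CPM in macrophages, 2436 ± 306 in B cells, 27.0 in fenestrated EC (lowest 4.59, highest 65.7) and 11.5 ± 11.3 in microglia, where this step did not pass (adjusted p = 0.0991). The 3 chain genes ran together over the classes, at r = 0.997 for H2-Aa with H2-Ab1 and 0.998 for H2-Aa with H2-Eb1. The invariant chain gene Cd74 averaged 6888 ± 632 CPM in B cells and 5990 ± 2126 in macrophages, and differed from the chain genes in its next step: microglia, at 149 ± 58.1 CPM (lowest 78.6, median 121, highest 239), lay above fenestrated EC, at 63.9 ± 50.7 CPM (lowest 14.9, median 49.4, highest 155; adjusted p = 0.00342, exact permutation test). The same 34 microglia held 691 of 1150 UMIs of H2-Ab1, 726 of 811 of H2-Eb1 and 1536 of 11336 of Cd74.

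Ciita, the switch of class II transcription, was most abundant in B cells (120 ± 27.9 CPM) and macrophages (81.5 ± 58.2 CPM, from 0 to 181). It stood at 5.17 ± 3.82 CPM in fenestrated EC, above venous EC at 0.887 (adjusted p = 0.0205, exact permutation test), and at 0.776 CPM in microglia. With the stricter gate, an alternative to these levels chosen after seeing the data, it stood at 2.00 CPM in venous EC and 0.436 CPM in microglia. Like Cd74 it was thus present where the chain genes were, except that microglia, with more Cd74 than fenestrated EC, had less Ciita. Cd74 and Ciita ran together over the 8 classes at r = 0.934, while class I with class II genes gave r from 0.017 to 0.371. The genes outside the 10 most like H2-Ab1 were Plxnc1 (0.990), Ifi206 (0.986), AI662270 (0.982), AB124611 (0.963) and Arpc5 (0.962).

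**Figure D2:**
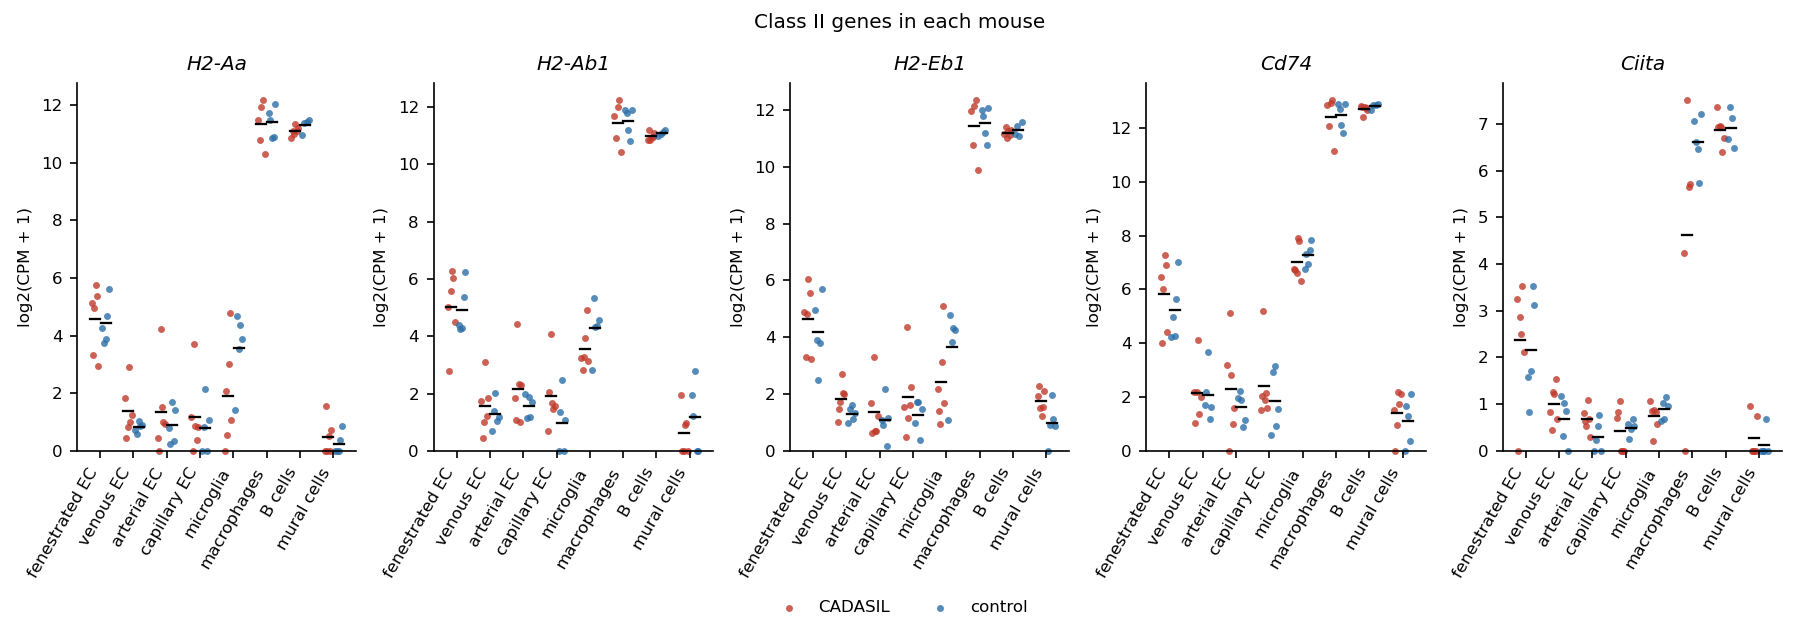
Levels of the 5 class II genes in 8 cell classes as log2(CPM + 1), 1 point for each CADASIL (red) and control (blue) mouse, with the group mean as a black line. Macrophages and B cells stand far above the rest, and fenestrated EC, with H2-Aa at a mean of 26.3 CPM, stand above arterial EC at 2.46 CPM.

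Against capillary EC, fenestrated EC were higher in all 5 class II genes, so that all 10 genes were called higher, with 26.8% of all genes as background. H2-Aa was higher by a log2 fold change of 4.03 ± 0.43, H2-Ab1 by 3.82 ± 0.38, H2-Eb1 by 3.21 ± 0.41 and Cd74 by 3.57 ± 0.42, each in 11 of 11 mice, and Ciita by 3.59 ± 0.50 in 10 of 11 mice. Without CADASIL 6 months replicate 3 the first 4 were 4.90, 4.44, 3.87 and 4.26. H2-DMb1 and H2-DMa, which exchange the peptides of class II molecules, were higher too, by 3.06 ± 0.52 and 0.98 ± 0.19. Of the markers of other cells, over the 1474 fenestrated EC Igkc stood at 0.329 CPM and Lyz2 at 3.95 CPM, and the 4 B cell markers kept out of the gates (Igkc, Ighm, Iglc2 and Bank1) summed to 2.09 CPM and to 0 in 5 of 11 mice. Barcodes with more than 1 of 5 dendritic cell markers had been left out by the gate, and the levels of these markers in the cells kept were not measured. The 4 macrophage markers (Lyz2, Apoe, Cd163 and Lyve1) are mostly Apoe, which ran from 194 to 438 CPM in fenestrated EC of 10 mice and to 1052 CPM in control 9 months replicate 2, a mouse that also had high class II levels; its part was not tested.

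No class II gene passed as higher in arterial or venous EC, where Ciita was too low for the test. H2-Eb1 was lower in arterial than in capillary EC (log2 fold change −0.87 ± 0.24, adjusted p = 0.00249 in edgeR; higher in 4 of 11 mice; 28.1% of genes called lower), a call that DESeq2 did not make (−0.78, adjusted p = 0.0502). The other 3 class II genes tested there, H2-Aa (0.43), H2-Ab1 (0.48) and Cd74 (−0.09), did not pass. None of the 4 tested in venous EC did, with values from −0.34 to −0.10. With the looser gate H2-Aa (−1.15, adjusted p = 0.000943 in edgeR) and Cd74 (−1.25, adjusted p = 9.51e-06 in edgeR) were lower in arterial EC. In venous EC all 4 were then lower, H2-Ab1 by −1.13 (adjusted p = 0.0209), H2-Eb1 by −1.07 (adjusted p = 0.0101), Cd74 by −1.38 (adjusted p = 0.00238) and H2-Aa (adjusted p = 0.00744, all in edgeR). Without CADASIL 6 months replicate 3 the 4 lay above 0 in venous EC, with H2-Aa at 1.03 (adjusted p = 0.0475 in edgeR). Without CADASIL 9 months replicate 1 Cd74 was lower there (−0.86, adjusted p = 0.0421 in edgeR). The cause of these changes was not tested. The class II UMIs of these subtypes were spread over cells in different ways. In arterial EC 1 cell of CADASIL 6 months replicate 3 held 311 of the 683 class II UMIs (H2-Aa, H2-Ab1, H2-Eb1 and Cd74 together) of all 6037 cells, and in capillary EC 2 cells of the same mouse held 362 of 672. In venous EC 1 cell with at least 20 class II UMIs held 53 of 753, and in fenestrated EC 11 such cells held 262 of 1678, or 15.6%.

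Macrophages and microglia of the same mouse differed mainly in class II. With 11.3% of 10830 genes called higher in macrophages, 8 of the 10 genes were called higher: H2-Aa by a log2 fold change of 8.32 ± 0.16, H2-Eb1 by 8.14 ± 0.16, H2-Ab1 by 7.39 ± 0.15, Ciita by 6.52 ± 0.39 and Cd74 by 5.13 ± 0.13, with the 4 other than Ciita higher in 10 of 10 mice and Ciita in 9 of 10. In class I, H2-D1 was higher by 0.89 ± 0.12 and H2-K1 by 0.46 ± 0.13 in 10 of 10 mice, and Tap1 by 1.16 ± 0.34 in 6 of 10 mice, whereas B2m (0.01 ± 0.12) and Tapbp (0.14 ± 0.20) did not pass. With DESeq2 B2m was higher (0.27, adjusted p = 0.0282). Over all genes the median was −0.22 here and 0.01 with DESeq2 size factors, under which 1611 genes were higher and 1642 lower in place of 1220 and 2361. With a stricter gate 4 of the 10 genes passed, so that not all 5 class II genes were among them. H2-K1 (0.01, adjusted p = 0.994), H2-D1 (0.60, adjusted p = 0.123) and Tap1 (1.12, adjusted p = 0.449, all in edgeR) did not pass. Tap1 also did not pass without CADASIL 9 months replicate 1 (0.90, adjusted p = 0.0749 in edgeR).

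Of the pathway list 10 of 36 genes were higher in macrophages and 7 lower, with 11.3% of all genes called higher and 21.8% lower. Cd40 was higher by 2.82 ± 0.57, H2-DMb1 by 2.22 ± 0.17, Nlrc5 by 1.75 ± 0.36 and Psmb9 by 1.35 ± 0.21. Lower were the protease genes of the class II route Lgmn, at −1.29 ± 0.13, and Ctss, at −1.07 ± 0.12, and H2-Oa, a brake on peptide exchange, at −4.05 ± 0.87. H2-Oa did not pass with the stricter gate (−7.88, adjusted p = 0.182 in edgeR).

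Macrophages differed among themselves in class II content. Of 206, 105 had at least 3 UMIs of the 4 class II genes and 86 had none, and the share with at least 3 ran from 33.3% to 63.6% over mice. Cells with at least 3 had 6356 CPM of Lyz2 and cells with 0 to 2 had 6187 CPM, while Apoe stood at 30861 against 43281 CPM, Cd163 at 183 against 359 and Lyve1 at 46.7 against 106. H2-K1 was at 891 against 623 CPM, H2-D1 at 1260 against 845 and B2m at 1418 against 998. Median depth was 4501 UMIs in the first and 3555 in the second, and these sums over cells were not tested. The 23 macrophages with a Lyve1 UMI, a marker of perivascular macrophages, pooled to 422 CPM of Cd74 against 6958 CPM in the rest, and to 71.6 against 3371 CPM of H2-Aa. At most 4 such cells came from 1 mouse, fewer than the 10 asked for here, and the comparison across mice was not made.

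Genotype was compared in each class on the UMIs summed per mouse (edgeR, adjusted over all genes). In EC H2-K1 ran from 554 through a median of 898 to 1353 CPM in the 6 CADASIL mice and stood at 859, 718, 915, 743 and 1052 CPM in the control mice. B2m ran from 733 through 1049 to 1635 CPM in CADASIL mice and stood at 991, 829, 1051, 1062 and 1231 CPM in control mice. The groups overlapped in both, with CADASIL 9 months replicate 1 the highest and CADASIL 6 months replicate 2 the lowest of all mice. The log2 fold change of CADASIL over control mice was 0.18 ± 0.18 for H2-K1, 0.13 ± 0.14 for H2-D1, 0.14 ± 0.18 for B2m, 0.15 ± 0.17 for Tap1 and 0.02 ± 0.09 for Tapbp. None of the 10 genes passed, with 0% of 12989 genes called by edgeR, 0 by DESeq2 and 193 at an unadjusted p under 0.05.

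Class II genes in EC were higher on average in CADASIL mice and did not pass either. H2-Eb1 ran from 3.10 through 4.45 to 13.8 CPM in CADASIL mice and stood at 2.91, 1.89, 3.51, 1.53 and 6.78 CPM in control mice. Cd74 ran from 2.67 through 9.95 to 30.3 CPM in CADASIL mice and stood at 2.91, 5.47, 9.30, 3.17 and 17.3 CPM in control mice. CADASIL 6 months replicate 3 was the highest in both, control 9 months replicate 2 was high among the control mice, and the groups overlapped. The log2 fold changes were 0.90 ± 0.45 for H2-Eb1 (unadjusted p = 0.0697 in edgeR), 0.87 ± 0.56 for H2-Aa, 0.78 ± 0.58 for Cd74, 0.64 ± 0.50 for H2-Ab1 and 0.35 ± 0.37 for Ciita, and without CADASIL 6 months replicate 3 those of H2-Eb1, H2-Aa, Cd74 and H2-Ab1 were 0.38, 0.32, 0.24 and 0.15. Without control 9 months replicate 2 they were 1.34, 1.45, 1.32 and 1.24, and none passed. In CADASIL 6 months replicate 3, 6 EC held 1444 of its 1857 class II UMIs. Over the 10 genes the median log2 fold change was 0.27, against 0.00 over all genes, and over 34 pathway genes 0.08 with 0 called and 1 at an unadjusted p under 0.05, Ifi30, a class II processing gene (0.63 ± 0.28, unadjusted p = 0.0424 in edgeR). The next largest were H2-DMb1 (0.55 ± 0.51) and Cd86 (−0.49 ± 0.63).

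The same held in EC subtypes. In fenestrated EC H2-Aa ran from 6.71 through 31.9 to 52.8 CPM in CADASIL mice and stood at 18.0, 12.4, 13.8, 24.7 and 48.0 CPM in control mice. Cd74 there ran from 14.9 through 75.4 to 155 CPM in CADASIL mice and stood at 18.0, 30.3, 18.4, 49.4 and 128 CPM in control mice. Mice of batch 1 were at the high end in both genotypes, and the groups overlapped. The log2 fold change was 0.32 ± 0.38 for H2-Aa and 0.59 ± 0.45 for Cd74, at 0.0633 and 0.28 without CADASIL 9 months replicate 1 and at 0.86 and 1.39 without control 9 months replicate 2. The class I genes lay between 0.12 and 0.21, with 0% of 8103 genes called, 0 by DESeq2 and 269 at an unadjusted p under 0.05. The background was 0% in arterial EC (10659 genes, 153 unadjusted), capillary EC (10351, 242) and venous EC (11093, 166), with 0 called by DESeq2 in each and no member called. Past an unadjusted p of 0.05 were Cd74 (2.08 ± 0.83, unadjusted p = 0.0229 in edgeR) and H2-Ab1 (1.68 ± 0.68, unadjusted p = 0.0245 in edgeR) in arterial EC. In venous EC it was H2-Eb1 (1.00 ± 0.37, unadjusted p = 0.0162 in edgeR). Without CADASIL 6 months replicate 3, whose single cell is described above, the arterial values were 0.77 and 0.56. Of the pathway list edgeR called 0 in each subtype, with 1 of 29 at an unadjusted p under 0.05 in arterial EC, 0 of 30 in capillary EC, 1 of 30 in venous EC (Cd40, unadjusted p = 0.0257 in edgeR) and 1 of 26 in fenestrated EC (Erap1, unadjusted p = 0.0382 in edgeR). The 3 largest were H2-Q7 (0.40), Cd40 (−0.38) and H2-DMa (0.35) in arterial EC, H2-Q7 (0.73), Cd86 (−0.71) and H2-Q6 (0.67) in capillary EC, Cd86 (−0.97), Cd40 (−0.44) and H2-Q6 (0.38) in venous EC, and Erap1 (−0.40), H2-Q6 (0.39) and H2-M3 (0.37) in fenestrated EC.

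In microglia class I genes were again close between genotypes and the means of the class II chains were lower in CADASIL mice, where few cells held most UMIs, as given above. B2m ran from 905 through 1144 to 1212 CPM in CADASIL mice and stood at 934, 873, 1080, 1186 and 1212 CPM in control mice. H2-Ab1 ran from 6.13 through 8.49 to 29.1 CPM in CADASIL mice and stood at 6.08, 39.0, 19.0, 19.5 and 22.7 CPM in control mice. In H2-Ab1 4 of 5 control mice were above 5 of 6 CADASIL mice, CADASIL 9 months replicate 2 was high and control 6 months replicate 1 low. The log2 fold changes were 0.10 ± 0.13 for B2m, 0.07 ± 0.15 for H2-K1, −0.67 ± 0.39 for H2-Ab1, −0.99 ± 0.73 for H2-Aa, −0.80 ± 0.67 for H2-Eb1 and −0.12 ± 0.28 for Cd74, with 0% of 10844 genes called by edgeR, 0 by DESeq2 and 110 at an unadjusted p under 0.05. Ciita was too low for the test. With a stricter gate H2-Ab1 was at 0.64 and Cd74 at 0.17. Of the pathway list 36 genes were tested with 0 called by edgeR and 0 at an unadjusted p under 0.05, and the largest were Rfxank (0.26), Psmb10 (0.23) and Cd274 (−0.20).

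Macrophages (0% of 1070 genes called by edgeR, 45 unadjusted, 1 by DESeq2; 5 against 5 mice) and B cells (0% of 3004 genes, 65 unadjusted, 0 by DESeq2; 6 against 4 mice) called no member. In macrophages the 4 class II genes tested lay between 0.08 and 0.11, and the 7 members tested between −0.29 and 0.11. In B cells the 9 members tested lay between −0.35 and 0.13. The largest pathway genes, none called by edgeR, were H2-DMa (0.32), Psme1 (−0.23) and Lgmn (−0.20) in macrophages, Cd40 (−0.62), Psmb9 (0.48) and H2-DMb1 (−0.45) in B cells, and Nlrc5 (−0.72), Ifi30 (0.43) and Irf1 (−0.37) in mural cells. Mural cells, with 0.0114% of 8758 genes called (1 gene, 351 unadjusted, 3 by DESeq2), called no member among the 4 tested. The 1 gene called was human NOTCH3, the transgene itself, at 2.43 ± 0.21 (adjusted p = 3.19e-06 in edgeR), named after its values were seen.

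**Figure D3:**
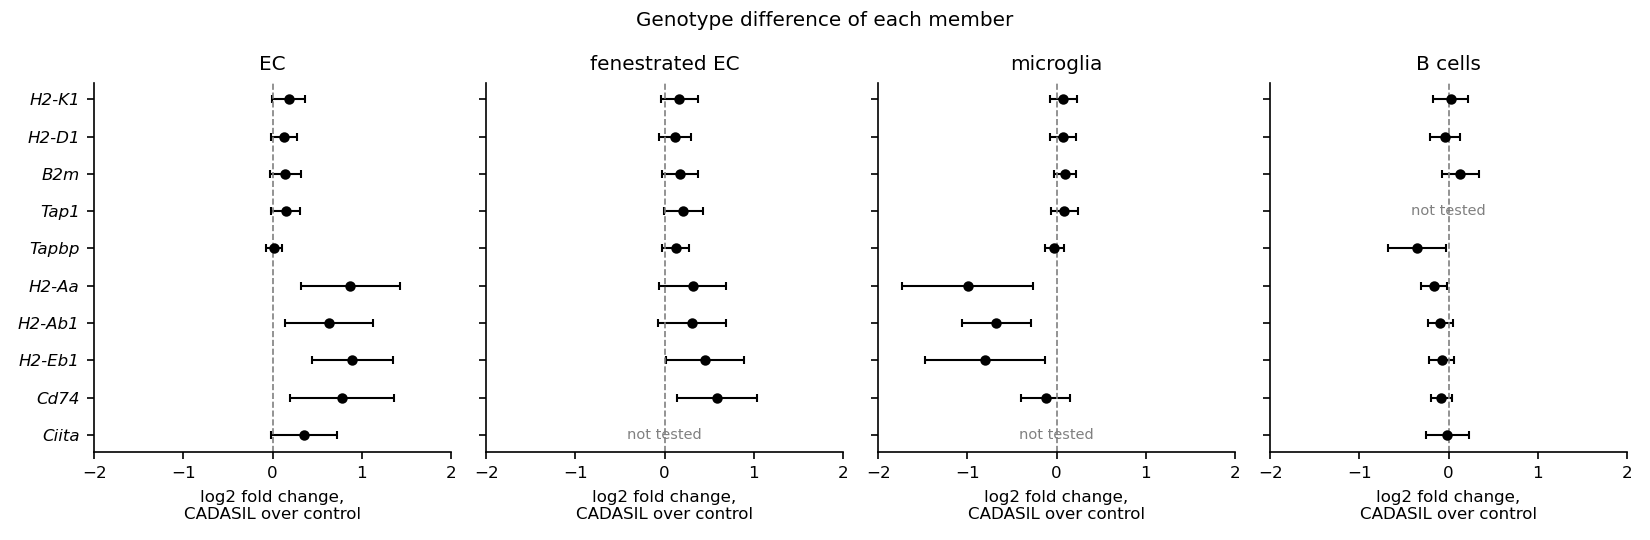
Log2 fold change of CADASIL over control mice for each gene in EC, fenestrated EC, microglia and B cells, with the standard error as a bar. Values are from the edgeR comparison of summed UMIs, and genes too low to be tested in a class have no point. In EC, fenestrated EC and microglia, class I genes lie near 0 with small errors (H2-K1 in EC 0.18 ± 0.18). Class II genes scatter there with larger ones (H2-Aa in microglia −0.99 ± 0.73). This differs in B cells, with Tapbp at −0.35 ± 0.33 and Cd74 at −0.08 ± 0.12. Macrophages, which are not drawn, had H2-K1 at −0.29 ± 0.22 and H2-Aa at 0.09 ± 0.31. None passed.

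The genotype difference was also taken at each age in EC and microglia. No batch held mice of both ages, so that differences between ages and between batches cannot be told apart. In EC at 6 months H2-Aa was at a log2 fold change of 1.70 ± 0.74 (unadjusted p = 0.0407 in edgeR) and H2-Eb1 at 1.49 ± 0.60 (unadjusted p = 0.0297 in edgeR), and at 9 months at −0.03 ± 0.77 and 0.20 ± 0.64. The 6 months group of CADASIL mice holds replicate 3, described above. In microglia at 6 months H2-Aa was at −3.72 ± 1.20 (unadjusted p = 0.00671 in edgeR), H2-Eb1 at −2.70 ± 0.99 (unadjusted p = 0.0148 in edgeR) and H2-Ab1 at −1.35 ± 0.53 (unadjusted p = 0.0198 in edgeR). There the H2-Aa levels were 0, 3.27 and 0.469 CPM in CADASIL mice and 1.66, 24.6 and 10.5 CPM in control mice of the same numbers. The groups overlapped. Each CADASIL mouse was below the control mouse of its number, but the number is a label in the sample titles and no known pairing. CADASIL replicate 2 (3.27 CPM) was above control replicate 1 (1.66 CPM), a mouse of the same batch and sex. Few cells carried these levels: 2 cells of control replicate 2 held 69 of its 72 H2-Aa UMIs and 3 cells of control replicate 3 held 66 of 88, while the CADASIL mice had 0, 8 and 3 H2-Aa UMIs in all. At 9 months the fold change was −0.50 ± 0.80, and the test of the difference between ages gave 3.22 ± 1.52 (unadjusted p = 0.0489, adjusted p = 1.00 in edgeR).

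These comparisons were repeated with mice of the same age and number as a block, an alternative chosen after seeing the data that leaves out CADASIL 9 months replicate 3. Mice of a block shared the batch but differed in sex, except those of replicate 3 at 6 months. Other ways to pair the mice within a batch were not run. In microglia at 6 months H2-Aa was then at −3.58 ± 0.60 (unadjusted p = 3.02e-05, adjusted p = 0.168 in edgeR), H2-Eb1 at −2.43 ± 0.68 (unadjusted p = 0.00277 in edgeR) and H2-Ab1 at −1.13 ± 0.35 (unadjusted p = 0.00637 in edgeR), with 1 gene of 11145 called and 509 at an unadjusted p under 0.05. The same few control cells enter here, and their part was not tested. At 9 months, with 2 pairs, H2-Aa was at −0.05 ± 0.38, and the difference between ages was 3.53 ± 0.74 (unadjusted p = 0.000276, adjusted p = 0.615 in edgeR). In EC at 6 months H2-Aa was at 1.44 ± 0.53 (unadjusted p = 0.0272 in edgeR), and at 9 months at 0.56 ± 0.62, the other direction from above; the cause was not tested.

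No member passed at either age or in the difference between ages, with or without the block. In EC edgeR called 0% of 13635 genes at 6 months (116 unadjusted), 0% at 9 months (504 unadjusted) and 0.00733% in the difference between ages, which is 1 gene, Fabp4, a fatty acid binding protein (−4.50 ± 0.54, adjusted p = 0.0372), named after its values were seen; with the block it called 0 there. In microglia it called 0.00877% of 11406 genes at 6 months (Negr1) and 0.00877% at 9 months (Mid1), 1 gene each and also named after their values were seen, and 0% in the difference (247 unadjusted). DESeq2 was not run on ages.

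The share of cells with class II UMIs asks how many cells carry the signal, and the Wilson limits given cover the counting error of cells pooled over mice only, not the spread over mice. Each cell was thinned to 2000 UMIs and counted if at least 3 were from H2-Aa, H2-Ab1, H2-Eb1 or Cd74. Among mural cells 0 of 2167 passed, which allows a share of up to 0.177% (95% Wilson limit), at a median depth of 7134 UMIs. Among EC 110 of 33631 passed (0.327%, 95% Wilson interval 0.271% to 0.394%, over mice 0.0585% to 0.876%, median depth 4894.5 UMIs), and among fenestrated EC taken alone 62 of 1404 did (4.42%, interval 3.46% to 5.62%, over mice 0 to 9.15%). Arterial EC had 5 of 5958, capillary EC 4 of 9314 and venous EC 5 of 4602. Among microglia 245 of 11546 passed (2.12%, interval 1.87% to 2.40%, over mice 0.359% to 4.49%, median depth 5179 UMIs), among macrophages 89 of 176 (50.6%) and among B cells 564 of 591 (95.4%). In fenestrated EC of control 6 months replicate 3 it was 0 of 105, and the shares of classes were not tested against each other.

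In fenestrated EC that had at least 3 class II UMIs before thinning (183 cells), Igkc was at 0 CPM, Ciita at 17.7 CPM against 3.40 CPM in the others, and H2-K1 at 2265 against 1583 CPM. Lyz2 was at 6.81 against 3.40 CPM, Apoe at 807 against 365 CPM, and median depth at 6770 against 5072 UMIs. These sums are pooled over mice and were not tested. Control 9 months replicate 2, which gave 71 of the 183 cells, also had the highest H2-K1 in fenestrated EC (2111 CPM). The 9 capillary EC of this kind had 118 CPM of Lyz2 and 50.5 CPM of Igkc, above the 4.65 and 0.379 CPM of other capillary EC. The 34 microglia with at least 20 class II UMIs had 96.1 CPM of Ciita, 1764 CPM of Lyz2 and 8962 CPM of Apoe, against 0.351, 187 and 335 CPM in microglia with 0 to 2. Of the other macrophage markers Cd163 and Lyve1 were at 0 CPM in them, and Igkc was at 30.7 against 0.518 CPM. Whether those barcodes hold 1 cell or 2 was not tested.

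By genotype the share of EC ran from 0.0585% through 0.381% to 0.524% in CADASIL mice and stood at 0.136%, 0.152%, 0.151%, 0.186% and 0.876% in control mice. The share of microglia ran from 0.359% through 1.60% to 4.49% in CADASIL mice and stood at 0.996%, 4 of 500 cells, 1.18%, 1.15% and 3.84% in control mice. The mice with the 3 highest shares in both classes were control 9 months replicate 2 and CADASIL 9 months replicates 1 and 2, all of batch 1. The same 3 had the highest shares of fenestrated EC, at 7.19%, 9.15% and 7.22%. The other mouse of batch 1, control 9 months replicate 1, had 0.186% in EC, 1.15% in microglia and 4.04% in fenestrated EC. The mean difference of CADASIL minus control mice was 0.00929 points in EC (p = 0.968, 2-sided exact permutation test) and 0.339 points in microglia (p = 0.734), both with an adjusted p of 1 over the 3 classes tested, and with labels exchanged within batches p was 0.931 and 0.681. With shared barcodes left out before thinning, which draws the thinning anew, the differences were −0.0294 and −0.125 points. With the same draw and shared barcodes left out afterwards they were 0.0144 and 0.349 points, and with another draw of all cells 0.0750 and 0.102 points, 2 further alternatives chosen after seeing the data. Macrophages had enough cells of that depth in 2 mice only, so that their share was compared with the looser gate alone, at means of 63.0% in 3 CADASIL and 49.4% in 3 control mice (difference 13.6 points, p = 0.3, exact permutation test).

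Interferon is known to raise class I, and EC in which at least 8 of 11 interferon-stimulated genes were detected were compared with the other EC of the same mouse. All 5 class I genes were higher in these 2107 cells in 11 of 11 mice, with 12.6% of 12528 genes called higher: Tap1 by a log2 fold change of 0.68 ± 0.05, Tapbp by 0.20 ± 0.04, H2-K1 by 0.18 ± 0.02, B2m by 0.14 ± 0.02 and H2-D1 by 0.11 ± 0.02. Of 33 pathway genes 17 were higher and 4 lower, with Cd274 at 0.98 ± 0.09, Nlrc5 at 0.89 ± 0.05 and Ctss at −0.95 ± 0.13. Without the mouse as a block Tap1 alone remained past the threshold, and H2-K1 was at 0.18 (adjusted p = 0.497), H2-D1 at 0.11 (adjusted p = 0.581), B2m at 0.14 (adjusted p = 0.575) and Tapbp at 0.21 (adjusted p = 0.0682, all in edgeR). H2-Aa (−0.80 ± 0.27, adjusted p = 0.0307 in edgeR) and H2-Eb1 (−0.75 ± 0.25, adjusted p = 0.0304 in edgeR) were lower, with 12% of genes called lower. Neither passed without CADASIL 6 months replicate 3 (−0.46, adjusted p = 0.235 in edgeR, and −0.38, adjusted p = 0.254 in edgeR), replicate 1 of the same group (−0.75 and −0.69, adjusted p = 0.0533 and 0.0541 in edgeR) or CADASIL 9 months replicate 2 (−0.72 and −0.66, adjusted p = 0.0748 and 0.0801 in edgeR). With the stricter gate neither passed (−0.35, adjusted p = 0.544, and −0.34, adjusted p = 0.460, in edgeR), nor did H2-Aa with the looser gate (−0.50, adjusted p = 0.254 in edgeR). H2-Ab1 (−0.67, adjusted p = 0.0735 in edgeR) and Cd74 (−0.59, adjusted p = 0.157 in edgeR) did not pass. Without control 9 months replicate 2 both were lower (−1.01, adjusted p = 0.00652, and −1.04, adjusted p = 0.00543, in edgeR), as was H2-Ab1 without CADASIL 9 months replicate 1 (−0.93, adjusted p = 0.0296 in edgeR) and with DESeq2 (adjusted p = 0.0227). The cause was not tested.

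The gate takes deep cells and shifts the subtypes, so depth and subtype moved with it. Median depth per mouse ran from 9423 to 14404 UMIs in interferon-gated EC and from 3075 to 7025.5 in other EC, and 33.9% of the former were arterial against 15.6% of the latter, and 1.90% against 4.19% fenestrated. Within capillary EC alone, a comparison chosen after seeing the data with 8 mice that had enough cells, 3 of the 6 members tested were higher, with 1.3% of 10051 genes called higher: Tap1 by 0.97 ± 0.24 (adjusted p = 0.00492 in edgeR), B2m by 0.35 ± 0.07 (adjusted p = 1.84e-05 in edgeR) and H2-K1 by 0.31 ± 0.07 (adjusted p = 0.0015 in edgeR). H2-D1 (0.19 ± 0.07), Tapbp (0.13 ± 0.14) and the only class II gene tested, Cd74 (−0.90 ± 0.71), did not pass. Of 30 pathway genes 11 were higher and 0 lower, with Cd274 at 1.60 ± 0.18 and all 5 immunoproteasome genes among them. Depth still ran higher there, from 4568 to 7849.5 against 3747 to 5303 UMIs over the 8 mice, and its part was not tested.

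Across the 11 mice, the summed CPM of the 5 class I genes was related to the summed CPM of the 11 interferon-stimulated genes. In EC the class I sum ran from 2158 to 4512 CPM and the interferon sum from 607 to 919 CPM, with Pearson r = 0.72 (permutation p = 0.0109) and Spearman rho = 0.691 (permutation p = 0.0226). In microglia the sums ran from 1843 to 2710 and from 48.9 to 123 CPM, with r = 0.748 (permutation p = 0.00531) and rho = 0.809 (permutation p = 0.00427). These were 2 relations, with adjusted p of 0.0109 and 0.0106 for r and of 0.0226 and 0.00854 for rho. Mice of batch 3 were low in both sums in microglia and control 9 months replicate 2 was high in both classes. Without the 2 mice farthest from the median, r was 0.708 in EC (permutation p = 0.0419) and 0.697 in microglia (permutation p = 0.0363), and rho in EC was 0.5 (permutation p = 0.178). With batch means subtracted, an alternative chosen after seeing the data that leaves 10 mice, r was 0.586 in EC (permutation p = 0.199) and 0.358 in microglia (permutation p = 0.521), and neither passed. With the stricter gate r in microglia was 0.556 (permutation p = 0.0771) and rho 0.436 (permutation p = 0.184).

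**Figure D4:**
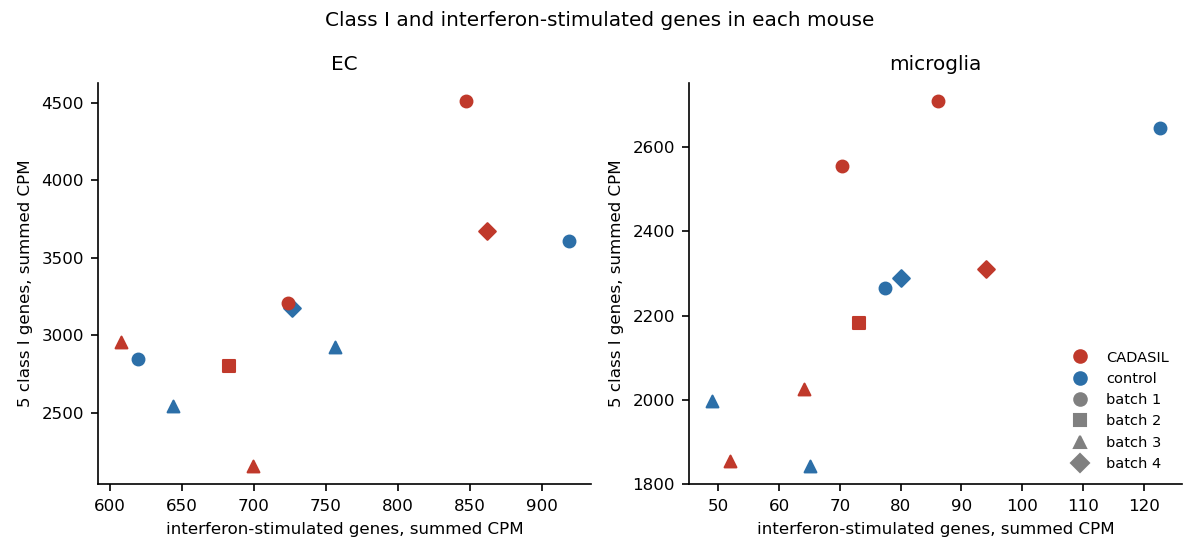
Summed CPM of 5 class I genes against summed CPM of 11 interferon-stimulated genes in EC and microglia, 1 point per mouse, with colour for genotype. In EC both sums are high in CADASIL 9 months replicate 1 (848 and 4512 CPM), and in microglia the relation has r = 0.748 over mice and 0.358 with batch means subtracted.

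In the mm10 annotation 7 of the 10 genes lie on chromosome 17. H2-K1 (chr17:33996017-34000347) and Tapbp (chr17:33915899-33929292) lie at one end, the class II chains H2-Ab1 (chr17:34257689-34269419), H2-Aa (chr17:34282744-34287823) and H2-Eb1 (chr17:34305867-34316674) beyond Tap1 (chr17:34187553-34197225), and H2-D1 (chr17:35262730-35267499) at the other. B2m (chr2:122147686-122153083) and Ciita (chr16:10480059-10528418) lie elsewhere, as does Cd74.

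RefSeq promoters (GRCm38.p6) were at hand for 7 of the 10 genes. In the 250 bases before the start, on both strands, 3 motifs were searched: the core of the interferon response element, GAAANNGAA, found in 7.13% of 32851 promoters; the Y box of MHC promoters, CCAAT, found in 33.8%; and the X box core, CCTNGNAAC, found in 4.06%. The Y box letters were in all 7. The letters searched for the interferon core were in B2m alone (139 to 131 bases before the start). Those searched for the X box core were in H2-D1 alone (212 to 204 bases before the start). Other forms of these letters were not searched, so a missing match does not show that an element is absent. H2-K1 holds tttcacttc, which the interferon letters do not cover. H2-Aa holds gctggcaac and H2-Eb1 actagcaac, which differ from the X box letters only at the first base. The promoters of B2m and H2-K1, whose levels ran together over classes, and of the class II chains H2-Aa and H2-Eb1 are shown from 160 to 11 bases before the start, with the letters of the searched motifs in capitals, on the strand of the gene; a match describes letters and no site. Their positions are chr2:122147527-122147676 (plus strand), chr17:34000358-34000507 (minus strand), chr17:34287834-34287983 (minus strand) and chr17:34305707-34305856 (plus strand).
B2m: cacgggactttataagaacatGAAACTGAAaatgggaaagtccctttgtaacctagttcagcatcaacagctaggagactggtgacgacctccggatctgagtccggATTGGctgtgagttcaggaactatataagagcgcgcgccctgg
H2-K1: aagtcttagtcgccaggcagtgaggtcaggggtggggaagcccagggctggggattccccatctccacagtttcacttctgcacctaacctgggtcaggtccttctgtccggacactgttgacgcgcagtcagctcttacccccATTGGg
H2-Aa: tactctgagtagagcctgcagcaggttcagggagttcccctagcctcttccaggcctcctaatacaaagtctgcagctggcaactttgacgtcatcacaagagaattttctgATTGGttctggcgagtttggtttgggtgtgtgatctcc
H2-Eb1: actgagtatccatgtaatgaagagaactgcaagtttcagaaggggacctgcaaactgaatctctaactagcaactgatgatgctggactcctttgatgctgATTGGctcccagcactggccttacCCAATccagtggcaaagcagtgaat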

How the data were processed

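The files hold UMI counts that the authors made with Cell Ranger 7.0.0 from 10x Chromium 3' v3.1 libraries against the mouse mm10 2020 transcriptome with human NOTCH3 added, as deposited. The 10 genes and the gene lists were chosen with earlier results of these data known. Gates asked for 4 of 8 markers in EC and in microglia, 3 of 6 in macrophages, 4 of 7 in B cells and 5 of 9 in mural cells. In general no more than 2 markers of another class were allowed. The limit was 5 for microglia markers in macrophages, 1 for macrophage markers in microglia and 1 for markers of dendritic cells or neutrophils. The 9216 kept barcodes that matched no class or several were left out. UMIs were summed per mouse and class with at least 20 cells (10 for macrophages, B cells and the interferon comparisons). Genes named Rpl, Rps, mt-, Gm and Rik were left out.

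Sums were tested in edgeR 4.0.16 (R 4.3.3; filterByExpr, TMM, quasi-likelihood), adjusted by Benjamini-Hochberg over all genes, with CADASIL against control mice or classes within mice. Alternatives were DESeq2 1.42.0, its size factors, no filter, batch, sex or age as a covariate, and a replicate block added or left out. Others were stricter and looser gates, at least 1000 genes, at most 20% mitochondrial UMIs, each mouse left out, and shared barcodes left out. Shares and levels were tested by exact permutation in Python 3.11.15 (numpy 2.4.6, scipy 1.17.1); with 11 mice the smallest p of a sign-flip test is 0.000977. Of the further pathway genes each past the threshold in a genotype comparison was to be named, otherwise the 3 largest; in other comparisons examples are named.

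Mice of the same age and number in the microglia of both genotypes were related (r from 0.137 to 0.458 over 5 pairs). Such mice also shared the batch. The control mouse most like a CADASIL mouse was that of its number in 2 of 5 pairs, so the relation was not particular to the number. The cause was not tested, and with these pairs as a block edgeR also called 0 genes in microglia. The study's authors left 1 control sample, not named, out of their microglia analysis; it is kept here. The test of Lyve1 macrophages was not run, since no mouse had the 10 such cells asked for. Reads from 3' ends cannot be told apart where genes overlap on a strand. Among the 10 genes, Tapbp overlaps Zbtb22 in this way and Cd74 overlaps the microRNA gene Mir5107.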

Additional observations from a re-analysis of the deposited data

Results flagged for a closer look

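Single mice stood apart from their group in 14 of 120 groups of levels (11.7%). For independent, normally distributed values chance alone gives about 1 in 20. Some of these levels were very low or came from related genes of the same mouse, and their own chance rate was not measured. Causes were not tested.

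In EC, H2-Eb1 was 13.8 CPM in CADASIL 6 months replicate 3 (next 5.58) and Ciita 0.371 CPM in control 6 months replicate 2 (next 0.835). In fenestrated EC, H2-K1 was 677 CPM in CADASIL 6 months replicate 2 (next 1719) and 2111 CPM in control 9 months replicate 2 (next 1455), H2-D1 was 946 CPM in CADASIL 6 months replicate 2 (next 1664), and Cd74 was 128 CPM in control 9 months replicate 2 (next 49.4).

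In microglia of CADASIL 9 months replicate 2, H2-Aa was 26.4 CPM (next 6.99), H2-Ab1 29.1 CPM (next 14.4) and H2-Eb1 33.1 CPM (next 7.81). In macrophages, B2m was 1077 CPM in control 6 months replicate 2 (next 1316) and Ciita 181 CPM in CADASIL 9 months replicate 1 (next 51.4). In mural cells, H2-Aa was 1.94 CPM in CADASIL 6 months replicate 2 (next 0.670), H2-Ab1 2.83 CPM in CADASIL 6 months replicate 1 (next 0.948) and Ciita 0.595 CPM in control 9 months replicate 1 (others 0).

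Fabp4, chosen after its values were seen, differed between ages in the genotype comparison of EC (−4.50, adjusted p = 0.0372 in edgeR).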

How the results depend on the processing

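The comparisons in edgeR, the shares, the relations and the mean levels were each run again under some of the alternatives named above. Shares and relations also had settings of their own. Relations had no run with each mouse left out, and mean levels only had other gates, other cell filters and shared barcodes left out. The steps between classes were not run again. Of 2512 alternative log2 fold changes of the 10 genes, 2372 kept direction and side of the threshold and 109 had the other direction. With the direction kept, 11 passed where the first did not and 20 no longer passed. Some of the 109 also passed where the first did not. Examples are H2-Aa in arterial EC with the looser gate and in venous EC without CADASIL 6 months replicate 3, given below. Where a result changed, the cause was not tested. Shared barcodes left out, the replicate block by age, another draw of the thinning, batch means subtracted, the interferon comparison within capillary EC and levels under other gates and filters were chosen after seeing the data. The comparisons by age were run under 1 other setting, the replicate block, and that of interferon-gated capillary EC under none. The test of Lyve1 macrophages was not run.

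Genes past the threshold by genotype in edgeR were 1 in place of 0 in venous EC with the stricter gate. In macrophages, in place of 0, they were 1 with DESeq2, 8 with no filter on low counts, 7 with the stricter gate, and 0 to 1 with each mouse left out. In B cells, in place of 0, they were 17 with no filter, 1 with batch as a covariate and 1 with the stricter gate. In mural cells, in place of 1, they were 3 with DESeq2, 3 with no filter, and 1 to 3 with each mouse left out. With the stricter gate the counts within mice were 4077 in place of 6451 (arterial against capillary EC), 3335 in place of 6435 (venous), 3761 in place of 5799 (fenestrated), 995 in place of 3581 (macrophages against microglia) and 1768 in place of 3076 (interferon EC), and the last was 522 with no replicate block. Of the 10 genes 9 passed in venous EC with the looser gate in place of 5, the added ones being lower (H2-Aa, H2-Ab1 by −1.13, H2-Eb1 by −1.07 and Cd74 by −1.38), 4 in macrophages with the stricter gate in place of 8, and 1 in interferon EC with no replicate block in place of 7.

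By genotype, Tapbp in EC was −0.0155 with batch as a covariate and −0.0165 with a replicate block, in place of 0.02. With the stricter gate Tapbp was 0.0404 in capillary EC and −0.0034 in fenestrated EC, and in microglia Tap1 was −0.12, H2-Ab1 0.64, Cd74 0.17 and Rfxank −0.0692. With the replicate block by age, in EC B2m was −0.0091 and Tap1 −0.0324 at 6 months, H2-Aa 0.56, H2-Ab1 0.39 and Cd74 0.71 at 9 months and Ciita 0.0425 in the difference between ages, where 0 genes passed in place of 1. In microglia H2-Ab1 was 0.0801, H2-Eb1 0.0460 and Cd74 0.27 at 9 months and H2-D1 0.17 in the difference. Against capillary EC, H2-Aa in arterial EC was −1.15 (adjusted p = 0.000943 in edgeR) and H2-Ab1 −0.41 with the looser gate, and in venous EC with DESeq2 H2-Aa was 0.46, H2-Ab1 0.0104 and H2-Eb1 0.0109. With the looser gate Cd74 was −1.25 in arterial EC (adjusted p = 9.51e-06 in edgeR). B2m in macrophages against microglia was −0.0251 with the stricter gate, and 0.27 with DESeq2 (adjusted p = 0.0282). In interferon EC H2-Aa (−0.35, adjusted p = 0.544 in edgeR) and H2-Eb1 (−0.34, adjusted p = 0.460 in edgeR) did not pass with the stricter gate, nor did H2-Aa with the looser gate (−0.50, adjusted p = 0.254 in edgeR). H2-Oa, lower in macrophages, did not pass with the stricter gate (−7.88, adjusted p = 0.182 in edgeR).

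With each mouse left out in turn, genotype values in EC ran from −0.0027 to 0.24 for B2m, from −0.0332 to 0.0647 for Tapbp and from −0.88 to 0.50 for Cd86. In arterial EC Tap1 ran from −0.0495 to 0.17. In capillary EC B2m ran from −0.0056 to 0.27, Tapbp from −0.0707 to 0.0220 and Cd86 from −0.97 to 0.63. Cd74 in venous EC ran from −0.53 to 1.22. In microglia H2-K1 ran from −0.0251 to 0.19, H2-D1 from −0.0206 to 0.20, Tapbp from −0.0627 to 0.0264 and Cd74 from −0.35 to 0.0679. Against capillary EC, Cd74 in arterial EC ran from −0.31 to 0.0232. In venous EC H2-Aa ran from −0.88 to 1.03 (adjusted p = 0.0475 in edgeR without CADASIL 6 months replicate 3), H2-Ab1 from −0.83 to 0.46, H2-Eb1 from −0.77 to 0.42 and Cd74 from −0.86 (adjusted p = 0.0421 in edgeR without CADASIL 9 months replicate 1) to 0.52. B2m in macrophages against microglia ran from −0.0053 to 0.0854.

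Of those with the other direction many were by genotype in macrophages, B cells and mural cells, none past the threshold. In macrophages with each mouse left out H2-D1 ran from −0.0265 to 0.12, H2-Aa from −0.13 to 0.27, H2-Ab1 from −0.11 to 0.27, H2-Eb1 from −0.10 to 0.33 and Cd74 from −0.0573 to 0.28. With at most 20% mitochondrial UMIs these 5 were −0.0341, −0.11, −0.0943, −0.0649 and −0.0615, with the looser gate H2-D1 was −0.0770, H2-Aa −0.0401, H2-Eb1 −0.0642 and Cd74 −0.0369, and with the stricter gate B2m was 0.485. In B cells with each mouse left out H2-K1 ran from −0.0940 to 0.14, H2-D1 from −0.12 to 0.0467, B2m from −0.0173 to 0.23, H2-Eb1 from −0.15 to 0.0092 and Ciita from −0.16 to 0.13. There H2-K1 was −0.0626 with sex as a covariate, H2-D1 0.0197 with a replicate block, and with the stricter gate H2-D1 was 0.0989, H2-Aa 0.39, H2-Ab1 0.14, H2-Eb1 0.40 and Cd74 0.0318. Ciita was 0.0048 with DESeq2, 0.0021 with its size factors, 0.0171 with batch and 0.0631 with age as a covariate, 0.0084 with at most 20% mitochondrial UMIs and 0.0037 with shared barcodes left out. In mural cells with each mouse left out H2-D1 ran from −0.14 to 0.0447, B2m from −0.10 to 0.10 and Tapbp from −0.0183 to 0.12. With the stricter gate H2-D1 was 0.0880 and B2m −0.0411, with batch as a covariate B2m was −0.0218 and Tapbp −0.0147, with a replicate block −0.0095 and −0.0123, and with at most 20% mitochondrial UMIs B2m was −0.0124.

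The difference in the share of EC was −0.0165 points with at least 1 UMI and −0.0294 with shared barcodes left out and the thinning drawn anew (0.0144 with the same draw, 0.0750 with another draw alone), and ran from −0.0336 to 0.153 with each mouse left out. That of microglia was −0.0736 thinned to 1000 UMIs, −0.0979 with the looser gate and −0.125 with shared barcodes left out and the thinning drawn anew (0.349 with the same draw, 0.102 with another draw alone), and ran from −0.174 to 0.901 with each mouse left out. In EC the relation of class I with interferon genes had r = 0.586 and rho = 0.528 with batch means subtracted, and rho = 0.5 without the 2 farthest mice, none of which passed. In microglia it had r = 0.358 and rho = 0.305 with batch means subtracted, and r = 0.556 and rho = 0.436 with the stricter gate, and none of these passed.

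Levels with the stricter gate differed by more than 1 SD over mice for Ciita in venous EC (2.00 CPM over 10 mice in place of 0.887) and microglia (0.436 in place of 0.776) and for H2-Aa in B cells (1998 CPM over 3 mice in place of 2344 over 10).

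Replicate pairs of both genotypes were also related in part of the other classes, with r from −0.104 to 0.324 in EC, −0.102 to 0.251 in arterial EC, −0.111 to 0.24 in capillary EC, −0.0958 to 0.302 in venous EC, −0.161 to 0.0381 in fenestrated EC, −0.187 to 0.041 in macrophages, −0.115 to 0.0707 in B cells and −0.13 to 0.122 in mural cells. The control mouse of the same number was the most alike in 2 of 5 pairs in arterial EC and 1 of 5 in EC, venous EC and fenestrated EC. It was so in 0 pairs in the rest of these classes.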
